A study of Mus musculus with 24 samples.

Results

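The expression of 7 genes of the endocannabinoid system was examined in nuclei of the mouse ventral hippocampus. The members, taken by name out of 33902 gene symbols in the snRNA-seq table, were the receptor gene Cnr1 and the enzyme genes Dagla, Daglb, Napepld, Mgll, Faah and Abhd6, and no measured value entered the rule. The study compared inbred mouse strains by single-nucleus sequencing, and the libraries used here came from C57BL/6J (B6), the strain of the reference genome, and DBA/2J (D2). All animals were adult males of 10 to 16 weeks, about 2 animals were combined into each replicate, and each strain had 2 libraries for snRNA-seq and 2 for snATAC-seq, an assay of open chromatin. The nuclei for snRNA-seq had been sorted to favor neurons over other cells, while those for snATAC-seq had not. The labels record neither an engineered allele nor a drug in either strain.

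Endocannabinoids are lipid messengers that neurons make on demand from membrane phospholipids. They travel backward across the synapse to the CB1 receptor, the product of Cnr1, which couples to Gi/o proteins and lowers transmitter release. The endocannabinoid 2-arachidonoylglycerol is made by the diacylglycerol lipases (Dagla, Daglb) and cleaved mainly by monoacylglycerol lipase (Mgll), with a smaller part taken by Abhd6. Another, anandamide, can be released from its phospholipid precursor by the enzyme of Napepld and is cleaved by fatty acid amide hydrolase (Faah). In the hippocampus, CB1 is known for its density on the terminals of interneurons that make cholecystokinin.

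The authors summed raw counts over the nuclei of each cell type in each library, which gave 17 cell types in snRNA-seq and 15 in snATAC-seq, named with the prefixes Exc (excitatory), Inh (inhibitory) and NN (non-neuronal). The columns carried the library numbers 2 and 3, which are kept here, and they could be placed in a strain but not on one sample. The snRNA-seq libraries held 6312 to 8707 nuclei and 43048686 to 56452272 counts, and single columns ran from 139713 counts (CR-CR in D2) to 11352265 (Exc-DG in B6). Every non-neuronal cell type named in both assays held fewer nuclei in snATAC-seq, although that assay had not been sorted to favor neurons. In NN-ODC there were 74 in B6 and 62 in D2, against 1816 and 1045 in snRNA-seq. Markers fitted most names: the myelin gene Mog reached 1083 CPM (counts per 1e6 counts) in NN-ODC and 18.9 in the next cell type, the microglial receptor gene Csf1r 1257 CPM in NN-MGC and 6.10 in the next, and the interneuron peptide gene Vip 574 CPM in Inh-CGE and 14.1 in the next. The exceptions included Pou3f1, from the CA1 list, which was highest in Exc-Gpc6 (44.9 CPM), and Coch, from the CA3 list, which was highest in NN-VLMC (63.8 CPM). In Exc-CA1-Fras1 the 3 CA1 markers summed to 31.4 to 53.8 CPM per library, below the 3 CA3 markers at 181 to 208 CPM. That CA3 sum was mostly Cpne4, which was also high in Inh-CGE (599 CPM, beside 610 CPM in Exc-CA3). Iyd averaged at most 8.16 CPM in any cell type and Coch at most 13.6 CPM outside NN-VLMC.

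Levels are given in CPM, which divides the counts of a gene by the summed counts of the transcripts that passed the low-count filter in the same cell type and library, after TMM scaling. This divisor was 87.1% to 103% of the full column total. Levels compare 1 gene across cell types and not 1 gene with another, since gene length was not taken into account. The cell types had been clustered on the same nuclei, so the levels are described without a test. A difference between cell types in CPM is a share of the RNA counted, and the cell types differed in counts per nucleus. With counts per nucleus in place of CPM, the highest cell type became Exc-CA3 for Dagla and Abhd6 and Inh-Lamp5 for Mgll, and it was the same for the other 4 members.

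Cnr1 lies on the plus strand at chr4:33924593-33948831 (GRCm38, GENCODE vM21). It was highest in Inh-CGE, where B6 had 851 and 669 CPM and D2 had 873 and 1153 CPM (886 ± 200 CPM, SD, n = 4). This was the only neighboring pair in the order of the 17 cell types whose library ranges stood apart: CR-CR came next at 105 ± 22.1 CPM, 8.44-fold lower, and then Inh-Lamp5 at 102 ± 27.8 CPM. Excitatory cells spread over the rest of the range. Exc-CA3 had 87.9 ± 13.6 CPM and Exc-CA1-Galntl6 had 73.9 ± 15.2 CPM, whereas Exc-DG had the lowest level of all cell types, 16.1 ± 0.823 CPM, which was 55.2-fold under Inh-CGE. Glial cells were also low, with 24.1 ± 3.29 CPM in NN-Astro and 22.2 ± 6.34 CPM in NN-ODC. Over the 17 cell types and 15246 transcripts, the patterns most like that of Cnr1 were those of Col14a1 (Pearson r = 0.84 on log2 CPM), Yjefn3 and Sp8, all of them highest in Inh-CGE. The points of such a correlation share their 4 libraries, so it is a description.

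The window from 250 bases before to 50 bases after a gene start is shown for Cnr1, Napepld, Mgll and Faah, chosen after their values were seen. The Daglb window held 0 matches to the motifs below and 11 CpG dinucleotides and is not shown. The Abhd6 windows, with 24 and 26 CpG dinucleotides and 2 and 1 matches, are not shown either, and Dagla had no window. The sequences and their gene starts are from RefSeq (GRCm38.p6), which is the sequence of B6. The Daglb window and the Cnr1 window at chr4:33924014-33924313 held 0 of the GENCODE starts. Capitals mark matches, on either strand, to the GC box GGGCGG, the E-box CACGTG, the CCAAT box, the TATA box TATAAA or the YY1 core AANATGGC. These were found in 35.7%, 7.15%, 37.4%, 13.6% and 6.05% of 32851 such windows, and a match describes the letters and does not make a binding site. The Cnr1 window at chr4:33924394-33924693 (plus strand) lay wholly inside an accessible region, held 33 CpG dinucleotides against a median of 7 for all windows, and had 1 match, an E-box. It is the middle one of 3 Cnr1 windows. The one before it (chr4:33924014-33924313), also inside an accessible region, held 40 CpG dinucleotides and 5 motif matches, and the one after it (chr4:33926130-33926429), in no accessible region, held 5 and 0.
Cnr1: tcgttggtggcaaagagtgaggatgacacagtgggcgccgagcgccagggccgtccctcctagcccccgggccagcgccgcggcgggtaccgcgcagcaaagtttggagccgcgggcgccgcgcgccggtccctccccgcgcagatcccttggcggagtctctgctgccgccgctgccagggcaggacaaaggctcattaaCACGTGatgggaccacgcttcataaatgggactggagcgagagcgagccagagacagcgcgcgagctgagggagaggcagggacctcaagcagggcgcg

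**Figure D1:**
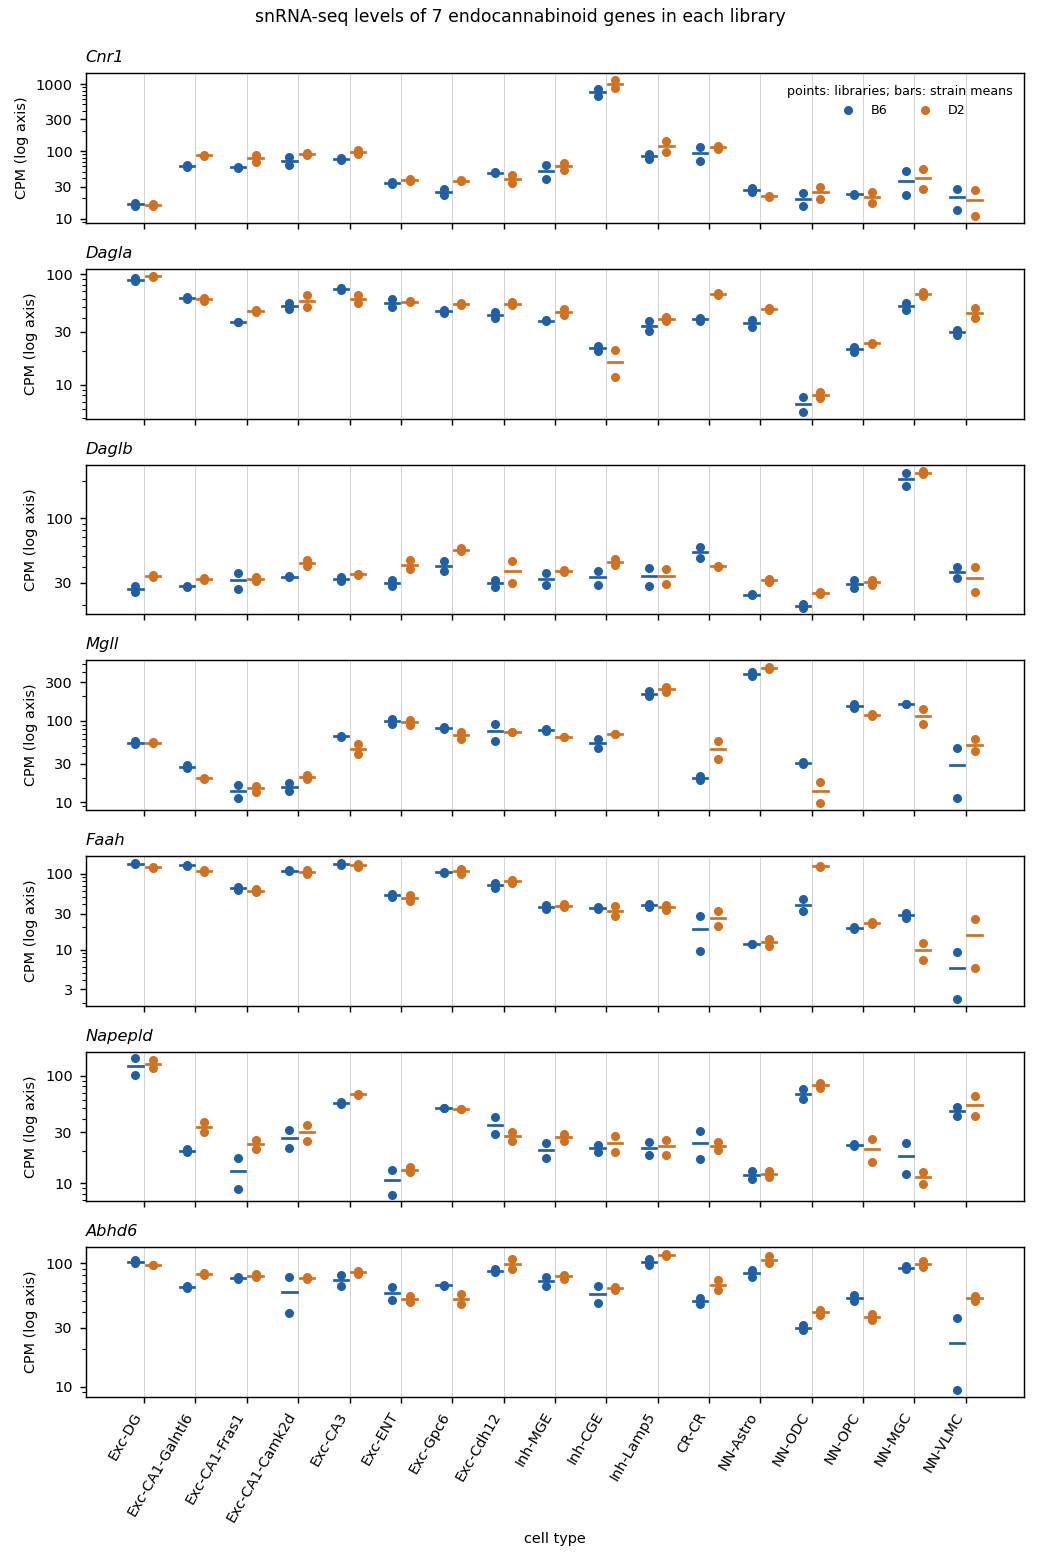
Level of each gene (CPM, log axis) in 17 cell types of the ventral hippocampus, with 1 point per snRNA-seq library (2 of B6, 2 of D2) and a bar at each strain mean. Cnr1 stood out in Inh-CGE (886 CPM over the 4 libraries), Daglb in NN-MGC (221 CPM) and Mgll in NN-Astro (414 CPM), and Faah in NN-ODC was the widest separation of the strains.

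The diacylglycerol lipase genes differed in where they were highest. Dagla, on the minus strand at chr19:10245265-10304877, was highest in Exc-DG, at 92.1 and 86.7 CPM in B6 and 94.7 and 96.9 CPM in D2, which did not overlap Exc-CA3 (66.7 ± 8.98 CPM). It was lowest in NN-ODC (7.34 ± 1.23 CPM), 12.6-fold under Exc-DG, and Inh-CGE, where the receptor gene was highest, came just above at 18.7 ± 4.82 CPM. Most cell types in between could not be separated by their libraries, as 13 of 16 neighbors overlapped. The nearest patterns were those of Gm50152 (r = 0.88), Cluap1 and Mir133a-1hg.

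Daglb, on the plus strand at chr5:143464584-143505942, was highest in NN-MGC, with 234 and 181 CPM in B6 and 240 and 230 CPM in D2. The next cell type, Exc-Gpc6, had 48.5 ± 9.13 CPM, 4.56-fold less, and the other cell types ran down to 22.3 ± 3.16 CPM in NN-ODC with every neighbor overlapping. In CPM the level in NN-MGC was 6.51 times that of the median cell type, and with counts per nucleus it was 1.59 times. The nearest patterns were those of Irf5 (r = 0.97), Pla2g15 and E230029C05Rik, each highest in NN-MGC. The end of Daglb overlaps Rac1 on the opposite strand, and Rac1 had 4048 counts in B6 and 4039 in D2 over all columns.

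Napepld, whose enzyme releases anandamide from its precursor, lies on the minus strand at chr5:21662901-21701396. It was highest in Exc-DG, with 146 and 102 CPM in B6 and 120 and 140 CPM in D2. That range did not reach the next cell type, NN-ODC, at 75.2 ± 10.2 CPM. Levels were lowest in Exc-ENT (11.99 ± 2.84 CPM), and NN-Astro (12.1 ± 1.02 CPM) overlapped it. Ippk (r = 0.81), Mfsd13b and Gm31615 had the nearest patterns, and all were highest in Exc-DG. The Napepld window at chr5:21701573-21701872 (minus strand) was 70.3% G and C, lay inside an accessible region and had 2 matches to the YY1 core. It was placed by a RefSeq start and held 0 of the GENCODE starts.
Napepld: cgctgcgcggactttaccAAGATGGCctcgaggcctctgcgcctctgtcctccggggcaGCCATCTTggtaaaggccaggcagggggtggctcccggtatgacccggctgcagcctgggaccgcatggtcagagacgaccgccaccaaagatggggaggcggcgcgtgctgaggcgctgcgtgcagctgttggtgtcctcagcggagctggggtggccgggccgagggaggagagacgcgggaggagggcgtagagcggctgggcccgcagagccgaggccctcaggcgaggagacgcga

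Among the degrading enzymes, Mgll, on the plus strand at chr6:88724412-88828360, was highest in NN-Astro, with 397 and 358 CPM in B6 and 460 and 440 CPM in D2. Inh-Lamp5 followed at 231 ± 23.8 CPM and stood apart from its neighbors on both sides. NN-MGC (140 ± 34.1 CPM) and NN-OPC (135 ± 20.8 CPM) overlapped each other. The 3 CA1 cell types were near the bottom of the order, down to 14.3 ± 2.37 CPM in Exc-CA1-Fras1, 28.9-fold under NN-Astro. In CPM the level in NN-Astro was 6.68 times that of the median cell type, and with counts per nucleus it was 2.59 times. Gdpd2 (r = 0.78), Rnf24 and Hrh1 had the nearest patterns. The Mgll window at chr6:88724162-88724461 (plus strand) lay inside an accessible region, held 32 CpG dinucleotides and had 2 matches, an E-box and a GC box. A further Mgll window (chr6:88724454-88724753) held 42 CpG dinucleotides and 1 GC box.
Mgll: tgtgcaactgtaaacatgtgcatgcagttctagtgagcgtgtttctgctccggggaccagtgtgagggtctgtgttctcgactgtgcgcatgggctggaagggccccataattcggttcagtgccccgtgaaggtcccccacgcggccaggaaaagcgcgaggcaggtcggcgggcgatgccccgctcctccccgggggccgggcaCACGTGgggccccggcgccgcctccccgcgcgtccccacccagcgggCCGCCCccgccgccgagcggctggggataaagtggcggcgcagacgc

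Faah, on the minus strand at chr4:115967145-116017926, was high in excitatory cells. Exc-CA3 (132 ± 7.26 CPM), Exc-DG (129 ± 8.55 CPM) and Exc-CA1-Galntl6 (120 ± 11.3 CPM) overlapped, and the inhibitory cell types lay together between 33.9 and 37.3 CPM. NN-Astro (12.2 ± 1.14 CPM) and NN-VLMC (10.6 ± 10.2 CPM) were lowest. NN-ODC averaged 82.6 CPM with an SD of 50.8, the widest of all cell types for this gene, and its strains are described with the strain differences. Fbxo27 (r = 0.92) and Srd5a1 (r = 0.90) were among the nearest patterns. The Faah window at chr4:116017875-116018174 (minus strand) lay inside an accessible region, held 16 CpG dinucleotides and had 2 GC box matches.
Faah: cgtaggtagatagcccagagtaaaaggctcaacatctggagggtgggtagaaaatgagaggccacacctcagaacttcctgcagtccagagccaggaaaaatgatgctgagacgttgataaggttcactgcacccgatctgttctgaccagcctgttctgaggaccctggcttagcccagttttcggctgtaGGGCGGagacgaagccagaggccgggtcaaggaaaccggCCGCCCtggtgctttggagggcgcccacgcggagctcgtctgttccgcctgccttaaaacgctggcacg

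Abhd6, on the plus strand at chr14:8002902-8056763, was the most even of the members. It ran from 110 ± 9.33 CPM in Inh-Lamp5 through 100 ± 4.39 CPM in Exc-DG to 35.1 ± 6.17 CPM in NN-ODC, a 3.13-fold range. All 16 neighbors in its order overlapped. Frmd4a (r = 0.84), Gm15632 and Atxn7l1os2 had the nearest patterns.

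The strains were compared within each cell type, D2 against B6, with edgeR on the 2 and 2 libraries and with Benjamini-Hochberg adjustment over all transcripts tested in that cell type. Of 119 pairs of a member and a cell type, 113 had enough counts to be tested and 6 did not. At adjusted p under 0.05, 19 of the 113 differed, 13 higher and 6 lower in D2. Over all transcripts and cell types, 22.1% of tests were called, and the members' share was not above it. An unadjusted p under 0.05 was found in 36 of the 113. Over all transcripts it was found in 1092 of 6661 in CR-CR, the lowest share, up to 7819 of 17723 in Exc-DG, the highest. Of the calls over all transcripts, 28312 were higher and 20308 lower in D2. Over the symbols with counts in both strains the split turned to 12827 higher and 17267 lower, while the members had 11 higher and 4 lower. DESeq2 called 5 of the 119 pairs, all of them among the 19. That share was not above the 7.13% of its tests called over all transcripts. The median log2 fold change of the members' tests was 0.17, beside medians over all transcripts of 0.01 to 0.06 in the single cell types. The cell types share the same 4 libraries, so the results of a gene in several cell types are not independent of each other. The p-values measure the spread between libraries of pooled animals. Each strain was mapped to its own reference, so strain and reference cannot be told apart in these comparisons.

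The 19 differences lay in 9 cell types. In Exc-CA1-Galntl6, 5 of the 7 members were called, where 35.0% of all transcripts were. In Exc-CA3 it was 3 of 7, against 32.1%, and in NN-Astro 3 of 7, against 26.2%. In Exc-CA1-Fras1 it was 2 of 7 (28.5% of all transcripts) and in NN-ODC 2 of 7 (19.0%). A single member was called in Exc-DG (36.0%), Exc-ENT (28.0%), Exc-Gpc6 (19.7%) and NN-MGC (10.4%).

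**Figure D2:**
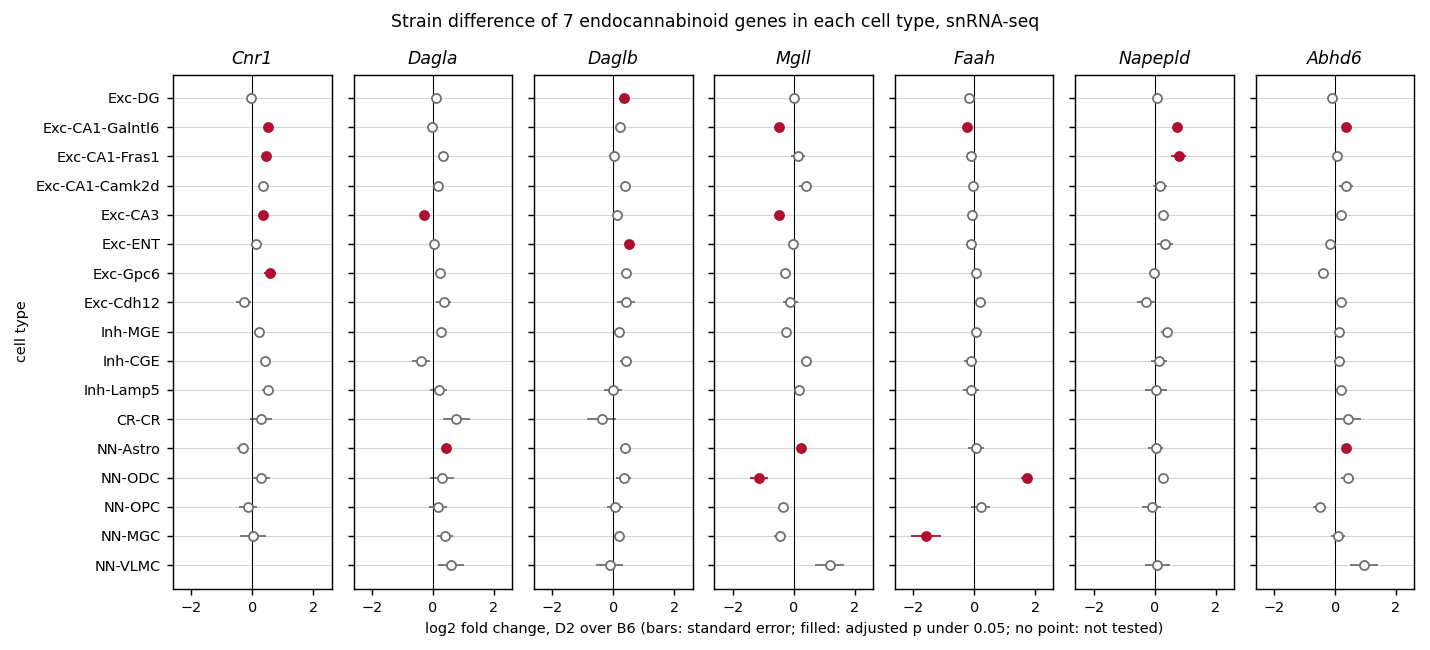
Strain difference of each gene in each cell type as log2 fold change of D2 over B6 (x axis), with standard errors as bars, red points at adjusted p under 0.05 (edgeR) and no point where the gene was not tested. The 4 red points of Cnr1 all lay above 0, and Faah had red points on both sides, from -1.58 in NN-MGC to 1.72 in NN-ODC.

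Cnr1 was higher in D2 in 4 excitatory cell types and lower in none. In Exc-CA1-Galntl6 the B6 libraries had 59.3 and 62.4 CPM and the D2 libraries 85.6 and 88.4 CPM. The strains did not overlap, and the difference was 1.43-fold (log2 fold change 0.52 ± 0.09 SE, adjusted p = 0.000141, edgeR). In Exc-CA1-Fras1 the values were 58.4 and 57.1 CPM in B6 and 70.1 and 87.1 CPM in D2 (log2 fold change 0.44, adjusted p = 0.00845, edgeR), and in Exc-CA3 79.5 and 75.1 against 91.6 and 105 CPM (0.34, adjusted p = 0.0138). Exc-Gpc6 passed narrowly, with 27.5 and 22.6 CPM in B6 and 38.0 and 35.9 CPM in D2 (0.58, adjusted p = 0.0491, edgeR). In Inh-CGE, where the gene was highest, the D2 libraries also lay above the B6 libraries, but the log2 fold change of 0.41 ± 0.14 missed the threshold (adjusted p = 0.0577, edgeR). In Exc-DG the strains overlapped, with a log2 fold change of -0.03 (adjusted p = 0.890). Without D2 library 3 the calls in Exc-CA1-Fras1, Exc-CA3 and Exc-Gpc6 were lost, without B6 library 3 those in Exc-CA3 and Exc-Gpc6, and without D2 library 2 that in Exc-Gpc6, while over all alternatives the log2 fold changes ran from 0.28 to 0.59, 0.24 to 0.44 and 0.43 to 0.71 in these 3 cell types. DESeq2 called Exc-CA1-Galntl6 alone (adjusted p = 0.00106), with 0.130 in Exc-CA1-Fras1, 0.119 in Exc-CA3 and 0.605 in Exc-Gpc6. The call in Exc-Gpc6 held in 4 of 11 alternatives, being lost also with a looser low-count filter, with the library number as a block in the fit and over the symbols with counts in both strains. In Exc-Gpc6 the CA3 markers, mostly Cpne4, summed to 140 and 142 CPM in B6 and 64.0 and 64.3 CPM in D2. The CA1 markers summed to 40.5 and 36.1 against 53.3 and 77.1 CPM and the excitatory markers to 371 and 363 against 460 and 518 CPM. Of the 14 marker lists 3 lay above B6 in both D2 libraries and 7 below, and their part in the result was not tested.

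Dagla was higher in D2 in NN-Astro, with 38.6 and 33.4 CPM in B6 and 47.7 and 49.8 CPM in D2 (log2 fold change 0.44 ± 0.15, adjusted p = 0.0247, edgeR). It was lower in D2 in Exc-CA3, where B6 had 75.3 and 72.2 CPM and D2 64.3 and 55.2 CPM (-0.30 ± 0.11, adjusted p = 0.0397, edgeR). The libraries of the strains did not overlap in either cell type. In Exc-DG, its highest cell type, D2 lay above B6 by 0.10 on the log2 scale (adjusted p = 0.350). Daglb was higher in D2 in Exc-ENT, with 28.0 and 31.9 against 45.9 and 38.6 CPM (0.50 ± 0.15, adjusted p = 0.00796, edgeR), and in Exc-DG, with 25.3 and 28.6 against 34.6 and 33.6 CPM (0.34 ± 0.11, adjusted p = 0.0240, edgeR). In NN-MGC, where Daglb was highest, the strains overlapped (0.19 ± 0.17, adjusted p = 0.567). In Exc-ENT the CA3 markers, mostly Cpne4, summed to 282 and 232 CPM in B6 and 557 and 459 CPM in D2. Of the 14 marker lists in Exc-ENT 2 lay above B6 in both D2 libraries and 8 below, and their part in the result was not tested. Neither the Dagla nor the Daglb calls were made by DESeq2, with adjusted p of 0.221 to 0.350. For Dagla, leaving out B6 library 3 or D2 library 3 ended both calls, B6 library 2 that in Exc-CA3 and D2 library 2 that in NN-Astro, the looser filter that in NN-Astro and the symbols with counts in both strains that in Exc-CA3, with ranges over all alternatives of -0.42 to -0.20 in Exc-CA3 and 0.34 to 0.55 in NN-Astro. For Daglb, leaving out B6 library 2 or D2 library 2 ended both calls and D2 library 3 that in Exc-DG, with ranges of 0.37 to 0.61 in Exc-ENT and 0.25 to 0.43 in Exc-DG.

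Napepld was higher in D2 in a pair of CA1 cell types. In Exc-CA1-Galntl6 the B6 libraries had 20.6 and 19.3 CPM and the D2 libraries 29.9 and 36.8 CPM, a 1.66-fold difference (log2 fold change 0.73 ± 0.14, adjusted p = 0.000467, edgeR). In Exc-CA1-Fras1 the values were 17.1 and 8.91 CPM in B6 and 21.0 and 25.0 CPM in D2 (0.79 ± 0.24, adjusted p = 0.0140, edgeR). The strains were apart in both, although the B6 libraries of Exc-CA1-Fras1 rested on 76 and 34 counts. That call was lost with DESeq2 (adjusted p = 0.180) and without B6 library 3 or D2 library 3, and its log2 fold change ran from 0.41 to 1.35 over all alternatives. In Exc-DG, where the gene was highest, the strains overlapped (0.07, adjusted p = 0.741). The processed pseudogene Gm15719 lies within Napepld on the opposite strand, with counts in D2 alone (499 over all columns).

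Faah differed most in NN-ODC. The B6 libraries had 46.0 and 31.9 CPM, from 90 and 85 counts, and the D2 libraries 128 and 125 CPM, from 170 and 175 counts. D2 was far above B6 in both libraries, 3.29-fold (log2 fold change 1.72 ± 0.17, adjusted p = 2.15e-08, edgeR), and DESeq2 gave an adjusted p of 1.13e-07. The D2 level in NN-ODC was close to that of Exc-CA3 and Exc-DG, while the B6 level was close to that of the inhibitory cell types. The 3 excitatory markers in NN-ODC summed to 88.9 and 79.3 CPM in B6 and 79.6 and 60.7 CPM in D2, none of them at 0, and the 3 oligodendrocyte markers to 4281 and 3420 CPM in B6 and 3387 and 3468 CPM in D2. The dentate granule list in NN-ODC was mostly Prox1, which was highest in CR-CR (382 CPM). C1ql2 and Dsp, the other genes of that list, averaged at most 9.11 and 4.74 CPM outside Exc-DG. The 3 dentate granule markers summed to 162 and 173 CPM in B6 and 203 and 207 CPM in D2, and the 3 astrocyte markers to 158 and 147 against 189 and 193 CPM, with the D2 libraries above the B6 libraries for both. The same held for the CA1 markers, at 25.5 and 28.2 against 36.0 and 32.8 CPM, and the precursor markers, at 24.0 and 24.4 against 39.8 and 25.0 CPM, while 4 of the 14 lists lay lower in D2, and the part of these lists in the result was not tested. Faah was lower in D2 in Exc-CA1-Galntl6, with 130 and 128 against 113 and 107 CPM (-0.23 ± 0.08, adjusted p = 0.0277, edgeR), a call lost with DESeq2 (adjusted p = 0.147) and without either D2 library (range over all alternatives -0.27 to -0.19). It was also lower in NN-MGC, where B6 had 13 and 22 counts and D2 5 and 4, and this call (-1.58 ± 0.48, adjusted p = 0.0448, edgeR) was lost when any single library was left out, with the block, over the symbols with counts in both strains and with DESeq2 (adjusted p = 0.990), with a range of -1.93 to -1.21. The 3 astrocyte markers in NN-MGC summed to 383 and 331 CPM in B6 and 260 and 224 CPM in D2, the excitatory markers to 124 and 118 against 98.1 and 113 CPM, the dentate granule markers to 42.8 and 67.8 against 27.0 and 32.8 CPM and the interneuron markers to 26.5 and 26.3 against 9.81 and 9.11 CPM. In NN-MGC 8 of the 14 lists lay below B6 in both D2 libraries and 4 above, among the latter the microglial markers (3420 and 3500 against 3751 and 4098 CPM) and the vascular markers (22.4 and 27.7 against 68.7 and 58.3 CPM), and the part of these lists in the result was not tested.

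Mgll was lower in D2 in NN-ODC as well, the same cells in which Faah was higher. The B6 libraries had 29.6 and 31.6 CPM and the D2 libraries 9.76 and 17.9 CPM, 2.20-fold apart (log2 fold change -1.14 ± 0.28, adjusted p = 0.00453, edgeR), on 58, 84, 13 and 25 counts. Without D2 library 2 the log2 fold change was -0.77 and the adjusted p 0.108 (edgeR), and DESeq2 gave an adjusted p of 0.205. In Exc-CA3 the values were 65.2 and 64.3 CPM in B6 and 51.6 and 39.6 CPM in D2 (-0.50 ± 0.12, adjusted p = 0.00421, edgeR), and DESeq2 called it too (adjusted p = 0.0432). In Exc-CA1-Galntl6 they were 28.6 and 26.6 against 19.5 and 20.01 CPM (-0.48 ± 0.13, adjusted p = 0.00874, edgeR). Only NN-Astro, its highest cell type, had a call in the other direction, with 397 and 358 CPM in B6 and 460 and 440 CPM in D2 (0.25 ± 0.09, adjusted p = 0.0421, edgeR). Within Mgll and on its strand, the symbols Gm44005, Gm43999 and Gm44001 had 552, 112 and 99 counts in D2 over all columns and 0 in B6. With these counts added to Mgll, the log2 fold change was -0.29 in Exc-CA1-Galntl6, no longer called (adjusted p = 0.0905), and -0.93 in NN-ODC, still called (adjusted p = 0.0180, edgeR), and 0.40 in NN-Astro (adjusted p = 0.000924). The call in Exc-CA3 was lost without D2 library 3 and that in Exc-CA1-Galntl6 without D2 library 2 and with DESeq2 (adjusted p = 0.134). The call in NN-Astro held in 4 of 11 alternatives, being lost with DESeq2 (adjusted p = 0.141), the looser low-count filter, the block, the symbols with counts in both strains, and without B6 library 3 or either D2 library, and over all alternatives these log2 fold changes ran from -0.71 to -0.33, -0.53 to -0.29 and 0.18 to 0.40.

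Abhd6 was higher in D2 in Exc-CA1-Galntl6 and NN-Astro. In Exc-CA1-Galntl6 the values were 63.3 and 65.1 CPM in B6 and 80.8 and 82.9 CPM in D2 (log2 fold change 0.35 ± 0.09, adjusted p = 0.00405, edgeR), and DESeq2 called the difference too (adjusted p = 0.0477). In NN-Astro they were 88.8 and 78.2 CPM in B6 and 101 and 114 CPM in D2 (0.37 ± 0.12, adjusted p = 0.0196, edgeR), a call lost with DESeq2 (adjusted p = 0.230), the looser filter, and without B6 library 3 or D2 library 3 (range 0.28 to 0.47). The strains did not overlap in either cell type. In NN-Astro, which also held calls of Dagla and Mgll, the 3 oligodendrocyte markers summed to 67.6 and 65.3 CPM in B6 and 26.6 and 22.4 CPM in D2. The 3 precursor markers summed to 47.4 and 50.6 against 63.8 and 66.1 CPM. Of the 14 marker lists in NN-Astro 2 lay above B6 in both D2 libraries and 9 below, and their part in these results was not tested. Over 11 alternative settings, the calls of Cnr1, Napepld and Abhd6 in Exc-CA1-Galntl6 and of Faah in NN-ODC held in every one, and all 19 kept their direction. In Exc-CA1-Galntl6, 2 of the 14 marker lists lay above B6 in both D2 libraries and 8 below. These counts were 3 and 5 in Exc-CA1-Fras1, 4 and 4 in Exc-CA3 and 1 and 10 in Exc-DG. The part of these lists in the calls was not tested.

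Whether the strain difference of a gene was the same in all cell types was tested with a strain by cell type interaction over all columns, with the library as a term. It was called for 5 of the 7 members, beside 14.6% of the 21050 transcripts tested: Faah (adjusted p = 4.34e-11, edgeR), Mgll (3.07e-06), Dagla (0.0138), Abhd6 (0.0183) and Napepld (0.0410). Cnr1 (adjusted p = 0.284) and Daglb (0.658) were not called, which does not show that their difference was uniform. In a further contrast, chosen after seeing the data, each cell type's strain difference was set against the mean of the others. Faah stood 1.70 ± 0.19 above that mean on the log2 scale in NN-ODC (adjusted p = 4.17e-11, edgeR) and Mgll stood at -1.25 ± 0.28 (adjusted p = 0.00213), where 3.09% of transcripts were called. Faah stood at -1.82 ± 0.48 in NN-MGC (adjusted p = 0.0201; 1.60% of transcripts called). Dagla (-0.55 ± 0.12, adjusted p = 0.00290) and Mgll (-0.54 ± 0.14, adjusted p = 0.0327) were called in Exc-CA3, where 1.05% of transcripts were, and Napepld (0.65 ± 0.16, adjusted p = 0.0144) in Exc-CA1-Galntl6, where 0.917% were.

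The chromatin of the gene starts was examined in snATAC-seq, which the choice of the members did not use. Its CPM divide by the counts of the peaks that passed the low-count filter, 32.5% to 62.7% of the column total in the non-neuronal cell types and 68.6% to 99.8% in the others, so they compare strains within a cell type and not cell types. Within 1 kb of an annotated start of the 7 genes there were 11 accessible regions (peaks), and each gene had at least 1. Of 165 pairs of a peak and a cell type 124 could be tested, and edgeR called 0 of them, with 9 at an unadjusted p under 0.05, and DESeq2 also called 0. Over all peaks and cell types, 4.30% of tests were called. An unadjusted p under 0.05 was found in 478 of 9529 peaks in NN-MGC, the lowest share, up to 43189 of 241612 in Exc-DG, the highest. The region over the Napepld start (chr5:21700403-21702079) had 43.9 and 41.6 CPM in B6 and 49.5 and 47.7 CPM in D2 in Exc-CA1-Galntl6, apart but within 0.18 ± 0.07 on the log2 scale (adjusted p = 0.134, edgeR). In Exc-DG it had 48.5 and 47.1 against 55.9 and 51.9 CPM (0.17 ± 0.06, adjusted p = 0.0860). Both were called when the library number was a block in the fit. The region over the Faah start (chr4:116016813-116018262) could not be tested in NN-ODC, where it had 4 and 3 counts in B6 and 10 and 8 in D2, from 74 nuclei in B6 and 62 in D2. In Exc-CA3 the same region had 15.2 and 14.5 CPM in B6 and 17.3 and 17.6 CPM in D2 (0.23 ± 0.10, adjusted p = 0.192).

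**Figure D3:**
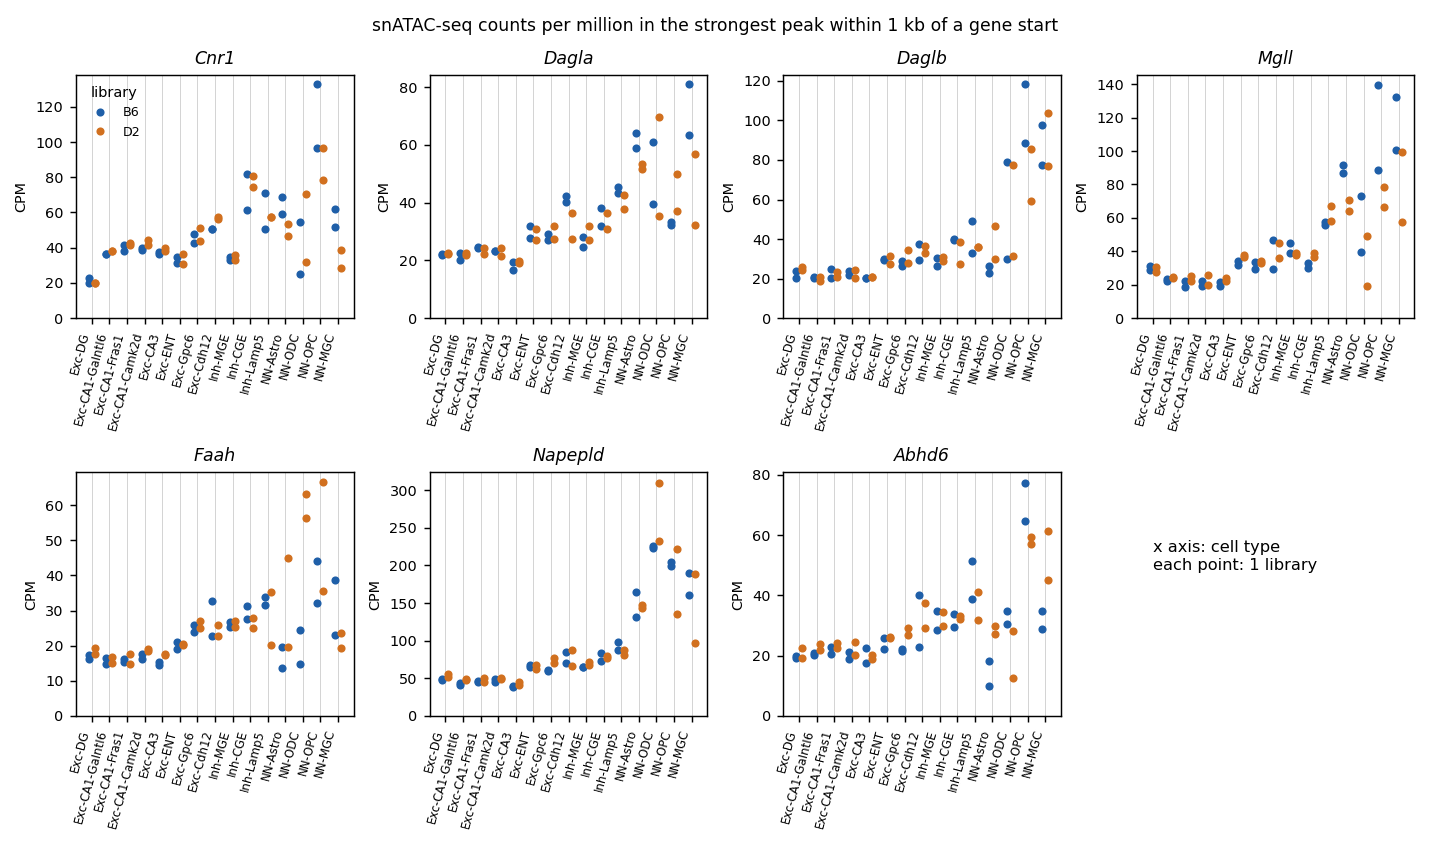
snATAC-seq level (CPM) in the strongest accessible region within 1 kb of a start of each gene, in 15 cell types, with 1 point per library (2 of B6, 2 of D2). CPM rest on the peaks that passed the filter in each cell type, so heights compare strains and not cell types. The non-neuronal types, in which the points scatter, had 40 to 126 nuclei per strain, and no region passed the test.

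Other genes of the pathway were taken as a list by role, 39 of which were in the table and 36 of which were tested in at least 1 cell type. Of their 449 tests 63 were called, 13 higher and 50 lower in D2 (10 and 50 over the symbols with counts in both strains), beside 22.1% of tests called over all transcripts, and the median log2 fold change was -0.09. The largest group, the Gq-coupled receptors and enzymes that raise diacylglycerol for the lipases, held 38 of the calls in 161 tests (23.6%), 3 higher and 35 lower. Plcb1, the gene of a phospholipase C that makes diacylglycerol, was lower in D2 in 7 of 17 cell types, from -0.26 in Exc-CA1-Galntl6 to -1.12 in NN-ODC. The scaffold gene Homer1 was lower in 6, by up to -0.82 in Exc-ENT, and the muscarinic receptor gene Chrm3 in 6, by up to -1.65 in NN-VLMC. The glutamate receptor gene Grm5 was lower in 6 and higher in NN-Astro (0.36). Of the genes called higher in D2, the fatty acid carrier Fabp7 (NN-Astro and Exc-CA3), the phospholipase gene Gdpd3 (Exc-CA1-Fras1 and Exc-DG) and the receptor gene Gpr18 (NN-MGC and Inh-MGE) had the most, 2 cell types each. The Gi/o proteins, through which CB1 signals, had 2 calls in 66 tests, both of Gnao1 and both lower. The receptor genes Cnr2 and Trpv1 and the enzyme gene Plaat5 had too few counts to be tested anywhere. Symbols that overlap the pathway genes were not looked up, and the part of the marker lists in their calls was not tested.

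**Figure D4:**
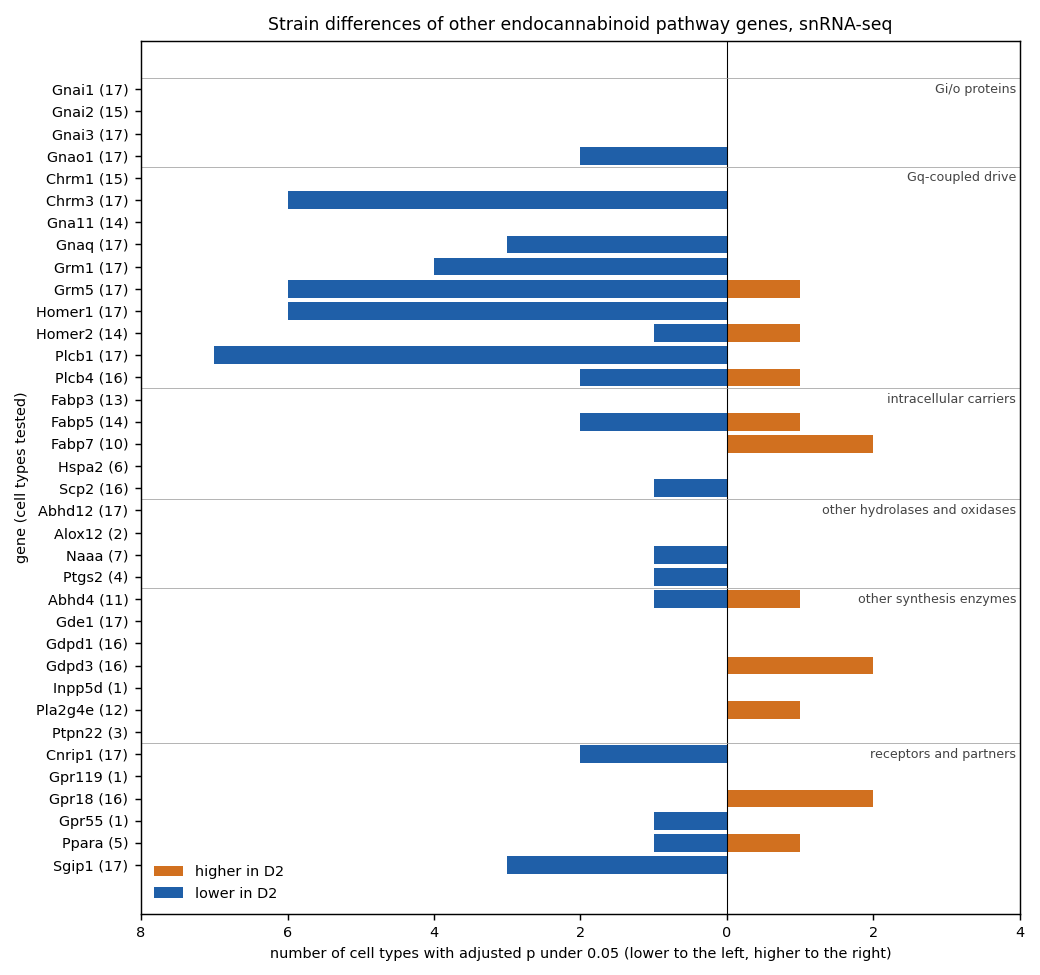
Number of cell types in which each of the tested pathway genes was lower (to the left) or higher (to the right) in D2 at adjusted p under 0.05 (edgeR), by role, with the number of cell types tested in brackets. The bars of the Gq-coupled group point mostly to the left, and Plcb1 has the longest, 7 cell types.

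Several of these genes stood out in a single cell type by level. The lipid phosphatase gene Inpp5d had 1917 ± 98.7 CPM in NN-MGC and 3.83 CPM in the next cell type, and Abhd12, a further hydrolase of 2-arachidonoylglycerol, had 621 ± 21.9 CPM in NN-MGC and 168 CPM in NN-OPC. Cnr2, the gene of the CB2 receptor, had 14.6 ± 7.14 CPM in NN-MGC and 0.595 CPM in the next. These genes and Daglb were all highest in NN-MGC. Grm5 was high in many cell types, with 2840 ± 241 CPM in Exc-CA1-Fras1 and 2839 CPM in Inh-MGE, and the nuclear receptor gene Ppara had 112 ± 7.21 CPM in NN-VLMC and 89.1 CPM in NN-Astro.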

How the data were processed

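Raw counts per transcript (snRNA-seq) and per peak (snATAC-seq), summed by cell type and library, were deposited by the authors without normalization. The authors had mapped reads with Cell Ranger 6.0.2 (introns kept) and Cell Ranger ATAC 2.0.0 to mm10 for B6 and to an SNP-swapped mm10 for D2, removed doublets, merged the MACS peaks of the single samples and named the cell types. Of the snRNA-seq symbols, 8204 had counts in D2 alone and 960 in B6 alone. Strain and mapping reference changed together, and their parts in a D2 against B6 difference were not tested. The members were taken by name and the lists by role or cell type, but earlier results of these data were known when they were chosen. Every cell type was fitted on its own with edgeR 4.0.16 (R 4.3.3; TMM, filterByExpr, quasi-likelihood F test), with the members always read from the fit of all transcripts or peaks. CPM divide by the filtered library size of each cell type times its TMM factor. The smallest two-sided p that exact permutation of 2 and 2 libraries allows is 0.333, so p-values come from these models and measure the spread between libraries. The SE is the absolute log2 fold change over the root of F. Gene coordinates are from GENCODE vM21. The 7 members were named in every cell type; of the pathway list, those called in the most cell types or with the highest levels were named, and for each member the 3 transcripts of most similar level, of which 1 is not reported here. Alternatives were DESeq2 1.42.0, RLE scaling, other filters, the library number as a block, no library term, peaks to 2.5 kb, other units of level and leaving out each library. Alternatives chosen after seeing the data were Mgll summed with overlapping symbols, the crossed block and the contrast of each cell type with the others. On simulated counts in Exc-CA3 (200 features changed 2-fold), edgeR recovered 97.5% of transcripts with 3.94% of calls false, and 84.5% of peaks with 0.588% false. The interaction recovered 75% with 5.06% false. Every simulated feature had the same dispersion, and only features with many counts were changed. The rates therefore do not cover smaller changes, genes with few counts or cell types with a wider spread between libraries. The 16 methylation samples and cell barcodes were not analysed here.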

Additional observations from a re-analysis of the deposited data

Results flagged for a closer look

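For 5 genes the D2 against B6 difference itself differed between cell types, by the interaction test over all snRNA-seq columns (edgeR, adjusted over 21050 transcripts). The same test called 14.6% of these transcripts. The count of 5 genes was lower under some other settings, which are given in the next section. The adjusted p was 4.34e-11 for Faah, 3.07e-06 for Mgll, 0.0138 for Dagla, 0.0183 for Abhd6 and 0.0410 for Napepld. Faah ran from a log2 fold change of -1.58 in NN-MGC to 1.72 in NN-ODC over the 15 cell types in which it was tested. Mgll ran from -1.14 in NN-ODC to 1.17 in NN-VLMC, where the D2 and B6 libraries overlapped and the adjusted p was 0.165. Dagla ran from -0.39 in Inh-CGE to 0.77 in CR-CR, Abhd6 from -0.50 in NN-OPC to 0.94 in NN-VLMC, and Napepld from -0.27 in Exc-Cdh12 to 0.79 in Exc-CA1-Fras1. Among these extremes, those of Faah, the lower one of Mgll and the upper one of Napepld passed the test within their cell type.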

How the results depend on the processing

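The count of called members (19) was 5 with DESeq2, 8 to 23 when each library was left out in turn and 15 to 22 under the other settings. It was 8 without D2 library 3, 11 without D2 library 2 and 12 without B6 library 3. With the library number as a replicate block it was 17. The labels do not say that the numbers pair the strains. Same-numbered libraries correlated between -0.26 and 0.10 in snRNA-seq and between -0.05 and 0.17 in snATAC-seq in their deviations, and a crossed block, added after seeing the data, gave 22. The 63 calls of the pathway list became 30 with DESeq2 and 51 to 64 with a library left out. The interaction called 5 members, 3 with neither library term nor block, 2 to 5 with a library left out (2 without D2 library 3, 3 without D2 library 2) and 5 or 6 otherwise. The promoter count of 0 became 2 with the block (Napepld in Exc-DG and Exc-CA1-Galntl6), 1 with peaks to 2.5 kb (Faah in Exc-CA3, log2 fold change 0.37, adjusted p = 0.0350, edgeR) and 0 to 1 with a library left out, the call being made without D2 library 3. The highest cell type held for 7 of 7 members with plain totals, 6 with TMM over all columns, 6 or 7 with a library left out and 4 with counts per nucleus. It became Exc-CA3 for Dagla and Abhd6 and Inh-Lamp5 for Mgll with counts per nucleus, Exc-DG for Abhd6 with TMM over all columns and Exc-DG for Faah without D2 library 2. No called strain difference changed sign, and the causes of these shifts were not tested. Depth was lowest in CR-CR (139713 to 482936 counts per snRNA-seq library) and NN-VLMC (225029 to 593447), and in NN-OPC (278059 to 418650 per snATAC-seq library).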

Other observations

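Peaks elsewhere in the members' genes, or within 5 kb of them, were looked at after the promoter result was known. Of 629 tests over 81 peaks, 19 were called (7 higher and 12 lower in D2), beside 4.30% of the tests of all peaks. They lay in Mgll (7 calls in 206 tests, all lower), Napepld (4 higher and 4 lower in 84), Abhd6 (3 in 77, all higher) and Dagla (1 in 110, lower). An intronic Mgll peak at chr6:88759645-88760479 had 11.99 and 12.5 CPM in B6 and 5.24 and 5.93 CPM in D2 in Exc-CA1-Galntl6 (log2 fold change -1.12 ± 0.14, adjusted p = 1.7e-10, edgeR). In Exc-CA3 it had 14.7 and 13.5 against 8.16 and 7.24 CPM (-0.88, adjusted p = 2.33e-08), and in Exc-DG 10.8 and 11.6 against 8.11 and 7.64 CPM (-0.52, adjusted p = 0.000945, edgeR). Its strains were apart in all 3 cell types. The Mgll transcript was called lower in D2 in Exc-CA1-Galntl6 and Exc-CA3, and in Exc-DG its log2 fold change was 0.00 (adjusted p = 0.976, edgeR). Its call in Exc-CA1-Galntl6 was lost with DESeq2, without D2 library 2 and with the overlapping symbols added. The transcript call in Exc-CA3 was lost without D2 library 3. The middle of this peak, chr6:88759913-88760212 (GRCm38, plus strand), had 1 match to the NeuroD-type E-box CAGATG, on the other strand and in capitals, which is found in 31.8% of 244362 peak middles of the same length. It had 0 matches to the AP-1 site TGANTCA (14.1%) and the E-box CACGTG (4.5%).
Mgll: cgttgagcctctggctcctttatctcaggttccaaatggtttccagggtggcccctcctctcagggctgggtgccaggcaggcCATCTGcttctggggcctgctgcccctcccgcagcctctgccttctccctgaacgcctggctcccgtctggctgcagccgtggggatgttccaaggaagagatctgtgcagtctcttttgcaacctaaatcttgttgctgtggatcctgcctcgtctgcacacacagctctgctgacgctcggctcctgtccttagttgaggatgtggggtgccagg

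The intron peak of Napepld at chr5:21672964-21674014 was higher in D2 in 4 excitatory cell types, from 1.03 in Exc-Gpc6 to 2.02 in Exc-ENT on the log2 scale, and another at chr5:21667312-21667993 was lower in 3, from -0.95 in Exc-CA3 to -1.50 in Exc-CA1-Camk2d. No library had more than 72 counts in either peak. An Abhd6 peak at chr14:8038296-8040155, which overlaps an exon, had 13.2 and 11.9 CPM in B6 and 18.3 and 20.3 CPM in D2 in Exc-DG (0.63 ± 0.09, adjusted p = 2.42e-07, edgeR) and was higher in Exc-CA3 too (0.37, adjusted p = 0.0115). The Abhd6 transcript in Exc-DG had a log2 fold change of -0.09 (adjusted p = 0.373).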
